A study of Mus musculus with 12 samples.

Results

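The 10 genes described here encode chaperones of the heat shock protein families, most of which are made in larger amounts under stress, and the transcription factor HSF1, namely Hspa1a, Hspa1b, Hspa8, Hspa5, Hsp90aa1, Hsp90b1, Hsph1, Hspb1, Dnajb1 and Hsf1. The set is a list of gene names, and the rule that defines it uses no measured value, though the names were chosen with earlier results of these data known. The annotation of the arrays gives probe sets of a single gene for 9 of the 10, with 24 probe sets of the 34945 that name 1 gene, and these 9 stand among 18193 genes in all. Hsf1 has no probe set of its own in that annotation and is not analysed here. A gene with several probe sets was read from the one with the highest mean over all arrays, and the other probe sets are given beside it.

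Total RNA of bone marrow-derived macrophages (BMDMs), grown from marrow in M-CSF, was hybridized to Affymetrix Mouse Genome arrays, with 3 biological replicates in each of 4 groups. WT cells came from C57BL/6 mice (C57BL6 in the labels) and Nos2-/- cells from B6.129P2-Nos2tm1Lau/J mice, which lack inducible NO synthase in every cell, and all mice were 6 to 10 weeks old. Stimulated cells of either genotype were given LPS at 100 ng/mL together with IFNγ at 50 ng/mL over 8 h. The untreated cells are described as vehicle (PBS) in the design and as taken ahead of stimulation in the sample labels, and the sources do not say whether mice were pooled. The values are log2 signals made by the authors with RMA, which corrects background, quantile normalizes and reduces the probes of a probe set to a single value, and 1 unit is a doubling. Array medians lay between 5.14 and 5.21, arrays of a group correlated at 0.996 to 0.998 across probe sets, and the number of arrays limits the precision.

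Chaperones bind unfolded stretches of proteins and help them fold, stay soluble or be degraded. In the cytosol the Hsp70 proteins work with J-domain cochaperones, which deliver substrates and start ATP hydrolysis, and with nucleotide exchange factors, which reset the cycle, and they pass some clients on to Hsp90. Heat, oxidants and other damage to proteins release the transcription factor HSF1, which binds heat shock elements, alternating inverted repeats of the unit NGAAN, in front of these genes. Chaperones of the endoplasmic reticulum (ER) answer to another pathway, the unfolded protein response, in which ATF6 and XBP1 act through ER stress elements.

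The promoters are shown for the elements of these pathways that they hold, which are read from the genome and not from the arrays. They were taken from RefSeq (GRCm38.p6), in windows of 300 bases around the transcript start, which the table holds for Hspa1a, Hspa1b, Dnajb1, Hsph1, Hspb1, Hspa5 and Hsp90b1. Exact matches were sought on both strands for 3 adjoining heat shock units (NGAANNTTCNNGAAN or NTTCNNGAANNTTCN), for 2 units (NGAANNTTCN or NTTCNNGAAN, which every longer match also contains) and for the ER stress element (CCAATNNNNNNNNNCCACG or its reverse complement). Of 32851 windows in the table, 0.597% hold the first, 15% the second and 0.119% the third. The capitals below are the fixed letters of a match. The first sequence is the 200 bases before the start of Hspa1a, on the minus strand at chr17:34972157-34972356, with 2 units beginning 105 bases before the start. The corresponding 200 bases of Hspa1b differ from it at 1 position, and the 300-base windows of these neighbours are 98.7% identical.
Hspa1a: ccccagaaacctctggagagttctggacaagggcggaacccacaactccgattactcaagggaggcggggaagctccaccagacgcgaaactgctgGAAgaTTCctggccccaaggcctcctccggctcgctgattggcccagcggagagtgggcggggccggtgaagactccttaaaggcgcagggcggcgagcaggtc

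Hspb1 has pairs of units 118 and 98 bases before its start, shown on the plus strand at chr5:135887769-135887868. Hsph1 holds the 3-unit form, which begins 35 bases after the first of its 2 annotated starts, on the minus strand at chr5:149636287-149636306. A pair of units also begins 34 bases before that start. Neither window of Dnajb1 holds any of the 3 motifs, which says only that these letters are not in those windows.
Hspb1: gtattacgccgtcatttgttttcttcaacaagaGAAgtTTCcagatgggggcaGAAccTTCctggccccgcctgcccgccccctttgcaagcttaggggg
Hsph1: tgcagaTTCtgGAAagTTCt

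The windows of the ER chaperones hold neither form of adjoining heat shock units that was sought, but do hold ER stress elements. Single units were not sought. Hspa5 has 1 that begins 65 bases before its start, on the plus strand at chr2:34771990-34772089. Hsp90b1 has 2, beginning 212 and 107 bases before its start, the latter in the reverse orientation, on the minus strand at chr10:86705505-86705674.
Hspa5: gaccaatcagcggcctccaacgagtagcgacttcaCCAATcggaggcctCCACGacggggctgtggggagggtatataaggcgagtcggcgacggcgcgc
Hsp90b1: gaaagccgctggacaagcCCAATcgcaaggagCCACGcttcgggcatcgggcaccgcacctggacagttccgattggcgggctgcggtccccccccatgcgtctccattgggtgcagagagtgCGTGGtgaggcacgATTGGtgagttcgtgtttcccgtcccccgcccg

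All 10 macrophage markers were read and none was called between genotypes, with a summed signal of 16.15 to 16.27 on the log2 scale on every array. The neutrophil list (7 of 8 markers read) summed to 12.52 to 12.58 in stimulated WT and to 12.88 to 12.94 in stimulated Nos2-/- cells. It was led by S100a8, which activated macrophages also make. Over all arrays S100a9, Ngp, Camp and Ltf averaged 8.70, 8.16, 6.67 and 6.31, above the array medians. Mpo and Elane averaged 5.26 and 5.27, close to those medians. Of the 44 markers read in all cell type lists, limma called none between genotypes, and where p was taken unadjusted at 0.05 it gave 1 higher and 2 lower in stimulated and 0 and 3 in untreated cells. All 18193 genes gave 1223 and 1517 in stimulated and 355 and 373 in untreated cells. In RNA of whole cultures, fewer cells of a type and less RNA per cell cannot be told apart. Nos2 itself has 1 probe set, at a mean of 9.73 (SD 0.09) on the stimulated WT arrays against 7.69 (SD 0.22) on those of Nos2-/- cells. Its signal rose with stimulation in the latter too, by 5.23-fold (adjusted p = 2.4e-10 from limma), and it cannot check the genotype since it may lie outside the deleted part.

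The inducible Hsp70 genes Hspa1a and Hspa1b rose steeply with stimulation in both genotypes, and by less in Nos2-/- cells. The other cytosolic chaperones rose by less than 1 log2 unit in either genotype, and of the ER chaperones Hspa5 did not pass the test and Hsp90b1 fell. In WT, 7 of the 9 genes rose and 1 fell, against 29.6% of all genes called higher and 28.4% called lower by limma at an adjusted p under 0.05. The counts in Nos2-/- cells were again 7 and 1, against 26.3% and 28.2%. The median log2 fold change of the 9 genes was 0.73 in WT and 0.30 in Nos2-/- cells, where that of all genes was 0.07 and 0.05. Untreated cells of the genotypes were not told apart at any of the 9 genes, with 0 calls by limma and 0 by the linear model without moderation. Of all genes, limma called 0.00550% in either direction. Where limma's p was taken unadjusted at 0.05, 0 of the 9 genes passed, against 355 higher and 373 lower of all 18193 genes. Among the 24 probe sets, 1 passed at that level, a further one of Hspa1b at 0.26 (unadjusted p = 0.0173, adjusted p = 0.9999 from limma).

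**Figure D1:**
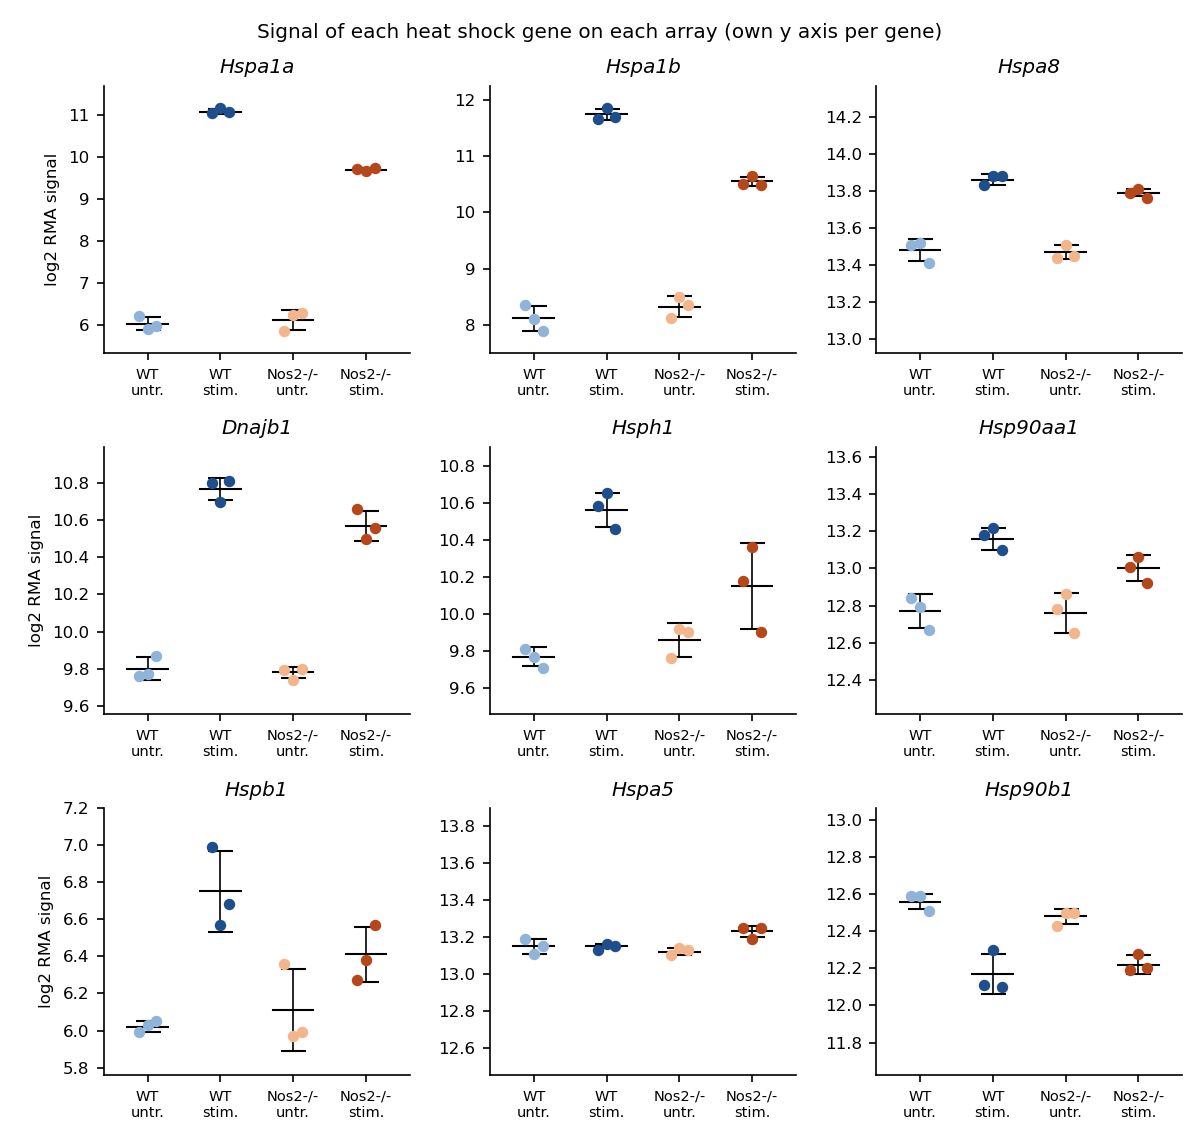
Log2 RMA signal of the 9 measured heat shock genes on each of the 12 arrays (points), with the mean and SD of each group of 3 (lines and bars), each gene on its own y axis. Hspa1a and Hspa1b rise in both genotypes with Nos2-/- stimulated arrays below WT, whereas Hspa5 stays between 13.10 and 13.25 on all arrays.

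Hspa1a encodes the main stress-inducible Hsp70 of the cytosol. Its log2 signal was 6.22, 5.92 and 5.98 on the untreated WT arrays and 5.87, 6.24 and 6.29 on the untreated Nos2-/- arrays, so the untreated groups overlapped. Stimulation brought it to 11.05, 11.17 and 11.07 in WT and to 9.73, 9.67 and 9.75 in Nos2-/- cells. Every stimulated array lay above every untreated one, and the stimulated genotypes were separated by over 1 log2 unit. The rise was 5.06 ± 0.10 (log2, SE), or 33.3-fold (95% CI 28.5 to 38.9), in WT, which placed Hspa1a 43rd of 18193 genes. For Nos2-/- cells it was 3.58 ± 0.10, or 12-fold (95% CI 10.2 to 14.0), and placed it 128th. Both rises passed limma's test, with adjusted p of 1.2e-13 and 2.4e-12.

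Hspa1b, a neighbour of Hspa1a on chromosome 17, encodes a nearly identical protein, so probe sets of either gene may also take up transcripts of the other. Its signal was 8.35, 8.11 and 7.90 on untreated WT arrays and 8.12, 8.50 and 8.36 on untreated Nos2-/- arrays. After stimulation it reached 11.66, 11.85 and 11.70 in WT and 10.51, 10.64 and 10.49 in Nos2-/- cells. As with Hspa1a, the stimulated groups did not overlap and the untreated ones did. The rise was 3.62 ± 0.11, or 12.3-fold, in WT and 2.22 ± 0.11, or 4.66-fold, in Nos2-/- cells (adjusted p of 6.1e-12 and 7.5e-10 from limma). The other probe sets of Hspa1b rose by 3.89 and 4.0 in WT and by 2.28 and 2.45 in Nos2-/- cells.

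Hspa8 encodes Hsc70, the constitutive Hsp70 that folds new proteins and uncoats clathrin vesicles. It was at 13.51, 13.52 and 13.41 in untreated WT and at 13.83, 13.88 and 13.88 in stimulated WT. The Nos2-/- arrays went from 13.44, 13.51 and 13.45 to 13.79, 13.81 and 13.76. Both rises were small and clear of the spread, at 0.38 ± 0.06 (adjusted p = 5.6e-05 from limma) and 0.32 ± 0.06 (adjusted p = 3.0e-04 from limma). Its other probe sets varied. The one with a mean of 13.62 rose by 0.19 in WT (adjusted p = 0.0336 from limma). It was at 0.08 in Nos2-/- cells, where the groups overlapped and it was not called (adjusted p = 0.3310 from limma). The one with a mean of 12.92 rose by 0.42 and 0.33, and a dimmer one, with a mean of 6.94, by 1.38 and 1.14.

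Both cochaperones among the 9 genes were called higher in each genotype. Dnajb1, the J-domain protein Hsp40, was at 9.76, 9.77 and 9.87 in untreated WT and at 10.80, 10.70 and 10.81 in stimulated WT. On the Nos2-/- arrays it was at 9.79, 9.74 and 9.80 and then at 10.66, 10.50 and 10.56. It rose in both genotypes, by 0.97 ± 0.06 or 1.96-fold in WT and by 0.80 ± 0.06 or 1.74-fold in Nos2-/- cells (adjusted p of 1.3e-08 and 9.1e-08 from limma). Its second probe set rose by 0.98 and 0.85.

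Hsph1 encodes Hsp110, a nucleotide exchange factor that works with Hsp70 in dissolving aggregates. Its signal was 9.81, 9.77 and 9.71 in untreated WT and 10.58, 10.65 and 10.46 in stimulated WT, a rise of 0.80 ± 0.10 or 1.74-fold (adjusted p = 9.7e-06 from limma). In Nos2-/- cells it was 9.76, 9.92 and 9.90 and then 10.18, 10.36 and 9.90, so these groups overlapped. The rise there was 0.29 ± 0.10 (adjusted p = 0.0256 from limma). That call was lost without Nos2-/- stimulated replicate 1 (0.27), Nos2-/- stimulated replicate 2 (0.18) or Nos2-/- untreated replicate 1 (0.24).

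Hsp90aa1 encodes the inducible cytosolic Hsp90, which holds kinases and steroid receptors ready for activation. It was at 12.84, 12.79 and 12.67 in untreated WT and 13.18, 13.22 and 13.10 in stimulated WT, and at 12.78, 12.86 and 12.65 and then 13.01, 13.06 and 12.92 in Nos2-/- cells. Stimulated and untreated arrays did not overlap in either genotype. The rise was 0.40 ± 0.07 in WT (adjusted p = 3.9e-04 from limma) and 0.23 ± 0.07 in Nos2-/- cells (adjusted p = 0.0162 from limma). The latter call was lost without Nos2-/- stimulated replicate 2 (0.20) or Nos2-/- untreated replicate 3 (0.18). Of its other 4 probe sets, those with means of 11.83 and 11.79 rose by 0.59 and 0.69 in WT, while the remaining ones were below the array median.

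Hspb1 encodes Hsp25, a small heat shock protein that binds unfolding proteins without using ATP. Its probe set was dim, at 5.99, 6.03 and 6.05 in untreated WT and 6.99, 6.57 and 6.68 in stimulated WT. On the Nos2-/- arrays it was at 6.36, 5.97 and 5.99 and then at 6.27, 6.38 and 6.57, and these groups overlapped. It rose by 0.73 ± 0.12, or 1.65-fold, in WT (adjusted p = 1.4e-04 from limma). In Nos2-/- cells the value was 0.30 ± 0.12 (adjusted p = 0.0484 from limma). That call held in 4 of 12 fits that left out 1 array. It was kept only without Nos2-/- stimulated replicate 1, Nos2-/- untreated replicate 1, WT stimulated replicate 1 or WT stimulated replicate 2. The second probe set, below the array median, rose by 0.67 and 0.48 (adjusted p of 0.0015 and 0.0139 from limma). Its Nos2-/- groups overlapped too.

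The ER chaperones took another course. Hspa5 encodes BiP, the Hsp70 of the ER and a standard readout of the unfolded protein response. It was at 13.19, 13.11 and 13.15 in untreated WT, 13.13, 13.16 and 13.15 in stimulated WT, 13.10, 13.14 and 13.13 in untreated Nos2-/- and 13.25, 13.19 and 13.25 in stimulated Nos2-/- cells. The log2 fold change was 0.00 (95% CI −0.12 to 0.11) in WT and 0.11 (95% CI −0.01 to 0.23) in Nos2-/- cells, so a change of more than 1.17-fold lay outside both intervals. Under centring of each array on its median, which shifts all genes up by 0.10 in WT and 0.12 in Nos2-/- cells, these became 0.10 and 0.23 and the latter passed the test. The Nos2-/- value also passed in 4 other of the 23 alternatives, 3 of which left it at 0.11 while the mean of its probe sets gave 0.14, so this call depends on the setting. The dimmest of its 3 probe sets rose by 0.32 in WT (adjusted p = 0.0094 from limma).

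Hsp90b1 encodes Grp94, the Hsp90 of the ER, which folds Toll-like receptors and integrins. It was the member that fell. In WT it went from 12.59, 12.59 and 12.51 to 12.11, 12.30 and 12.10, and in Nos2-/- cells from 12.43, 12.50 and 12.50 to 12.19, 12.28 and 12.20. No stimulated array reached an untreated one of its genotype. The log2 fold change was −0.40 ± 0.07 in WT (adjusted p = 1.7e-04 from limma) and −0.26 ± 0.07 in Nos2-/- cells (adjusted p = 0.0051 from limma), the latter −0.13 and not called after median centring. Its second probe set gave −0.38 and −0.25.

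Over all 24 probe sets, 19 were called higher and 2 lower with stimulation in WT, against 26.5% and 27.6% of all single-gene probe sets. The same counts for Nos2-/- cells were 16 and 2, against 24.5% and 26.9%.

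Once stimulated, Nos2-/- cells held less Hspa1a, Hspa1b and Hsph1 RNA than WT cells. The 3 lower calls and 0 higher calls among the 9 genes compare with 1.91% and 1.03% of all genes. Where p was taken unadjusted at 0.05, limma gave 6 lower and 0 higher, against 1517 lower and 1223 higher of all 18193 genes. Hspa1a was lower by 2.60-fold (95% CI 2.23 to 3.04, adjusted p = 5.5e-06 from limma) and ranked 16th from the lowest of all genes. Hspa1b was lower by 2.29-fold (95% CI 1.93 to 2.72, adjusted p = 4.2e-05 from limma) and ranked 22nd. Hsph1 was lower by 1.33-fold (95% CI 1.15 to 1.55, adjusted p = 0.0422 from limma). This last call was fragile, since of the 12 fits without 1 array it held only without Nos2-/- stimulated replicate 2 (−0.52, adjusted p = 0.0094), and the others gave an adjusted p of up to 0.1472. The summed neutrophil markers, led by S100a8 at 12.27 in stimulated WT and 12.67 in stimulated Nos2-/- cells, moved the opposite way between the same arrays. Means of S100a9, Ngp, Camp and Mpo were also higher in the latter, those of Ltf and Elane were lower, and none was called. The part of these markers in the values of the heat shock genes was not tested.

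The other 6 genes did not pass the test between stimulated genotypes. Dnajb1 was at −0.20 (95% CI −0.34 to −0.06), Hspb1 at −0.34 (95% CI −0.60 to −0.08) and Hsp90aa1 at −0.17 (95% CI −0.33 to 0.00). The second probe sets of Dnajb1 and Hspb1 were nearer 0, at −0.07 (95% CI −0.23 to 0.09) and −0.06 (95% CI −0.38 to 0.26). For Hspa8 the difference was −0.08 (95% CI −0.20 to 0.05) in the probe set that stands for the gene. Its dimmer probe set was at −0.30 (95% CI −0.57 to −0.02, adjusted p = 0.3074 from limma). The ER chaperones Hspa5 and Hsp90b1 were at 0.08 and 0.05, the 2 values above 0. Among the 24 probe sets, 7 were lower, against 1.54% of all, and these comprised the probe set of Hspa1a, all 3 of Hspa1b, both of Hsph1 and 1 of the 5 of Hsp90aa1 (−0.29, adjusted p = 0.0458 from limma).

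Whether the genotypes respond differently was tested as the response in Nos2-/- cells minus that in WT, which shares its stimulated arrays with the comparison above. Hspa1a and Hspa1b, 2 of the 9 genes, were called, both lower, against 0.676% of all genes called lower and 0.302% higher. None was called higher by limma, also at an unadjusted p under 0.05, where 4 were lower. At that level 868 of all 18193 genes were higher and 957 lower. For Hspa1a the difference was −1.47 ± 0.15 on the log2 scale (95% CI −1.79 to −1.16, adjusted p = 1.9e-04 from limma), 15th from the lowest of all genes. For Hspa1b it was −1.40 ± 0.16 (95% CI −1.75 to −1.05, adjusted p = 5.6e-04 from limma), 18th from the lowest. The rise in Nos2-/- cells was thus smaller than in WT by 2.78-fold and 2.64-fold, while it was still 12-fold and 4.66-fold. The 2 other probe sets of Hspa1b differed by −1.61 and −1.55, and these 4 were the probe sets of the 24 that were called lower, against 0.509% of all.

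**Figure D2:**
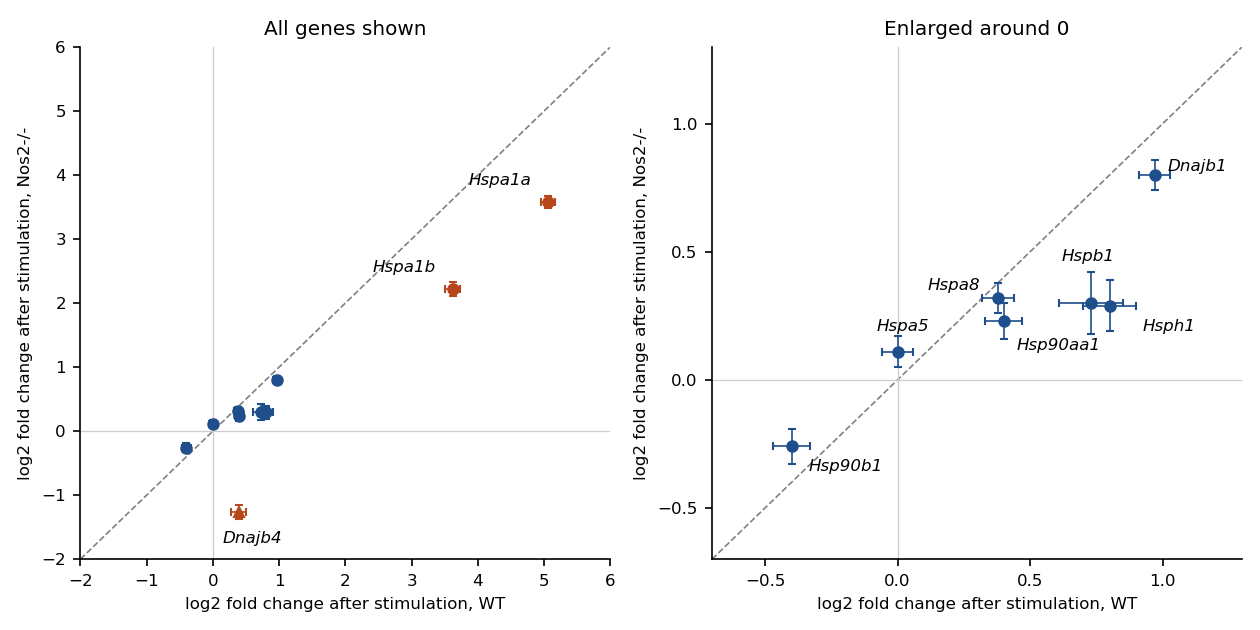
Log2 fold change with stimulation in WT (x) and in Nos2-/- cells (y) for the 9 heat shock genes (circles) and Dnajb4 (triangle), bars being standard errors and the dashed line equal responses; the right panel enlarges the region around 0. Orange marks genes whose responses differed in limma's test, namely Hspa1a (5.06 and 3.58), Hspa1b (3.62 and 2.22) and Dnajb4 (0.39 and −1.26), and the blue ones did not pass it.

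For the other members the difference did not pass the test, and the intervals show what these arrays could resolve. Hsph1 was at −0.51 (95% CI −0.81 to −0.20, adjusted p = 0.1539 from limma), with −0.51 again in its second probe set, and without Nos2-/- stimulated replicate 2 it was −0.61 and called (adjusted p = 0.0412). Hspb1 was at −0.42 (95% CI −0.79 to −0.05, adjusted p = 0.4072 from limma). Dnajb1, Hsp90aa1 and Hspa8 were at −0.17 (95% CI −0.37 to 0.03), −0.16 (95% CI −0.39 to 0.06) and −0.07 (95% CI −0.24 to 0.11). The intervals of these 3 leave out a difference as large as that of Hspa1a. The ER chaperones lay on the other side of 0, Hspa5 at 0.11 (95% CI −0.05 to 0.28) and Hsp90b1 at 0.14 (95% CI −0.07 to 0.35).

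**Figure D3:**
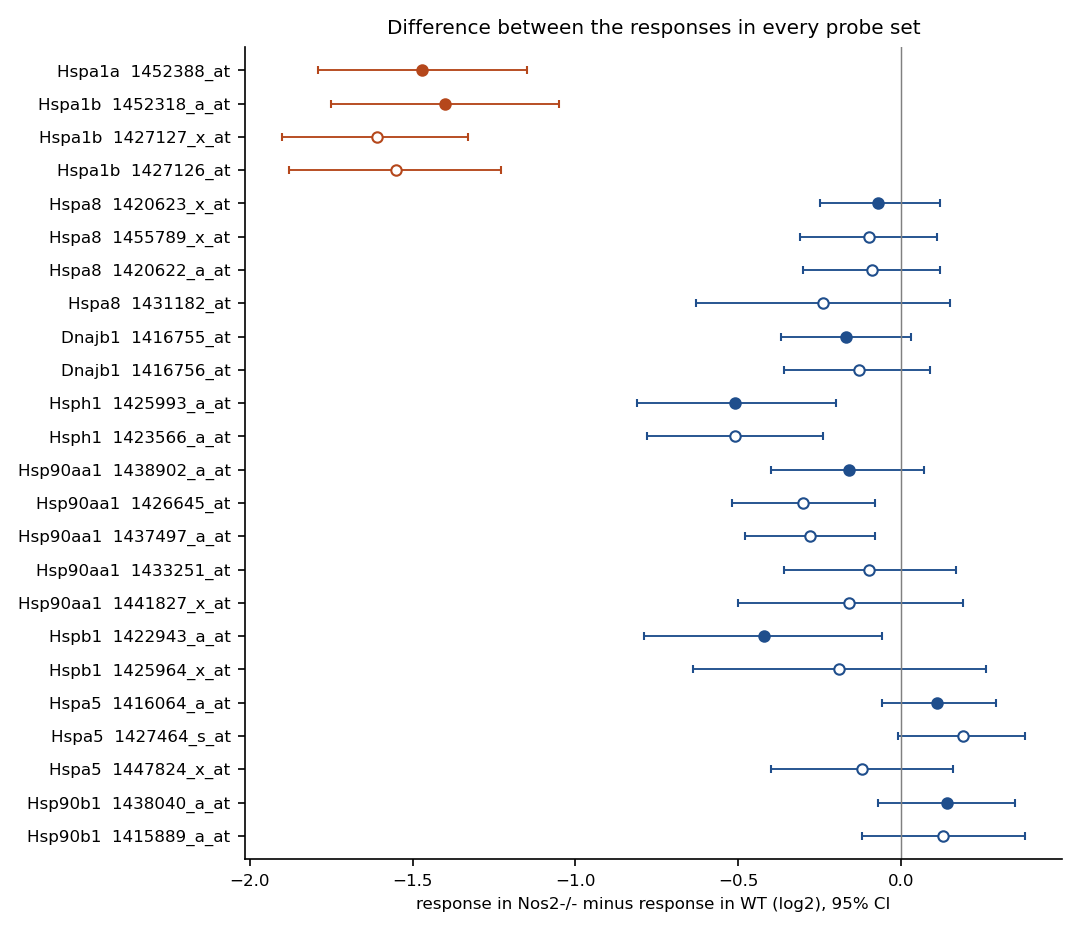
Response in Nos2-/- cells minus response in WT (log2, x axis) for each of the 24 probe sets, with 95% confidence intervals; filled points are the probe set that stands for its gene, and orange ones passed limma's test over all probe sets. The 4 probe sets of Hspa1a and Hspa1b lie between −1.61 and −1.40, and the other 20 between −0.51 and 0.19.

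By mean, the order of levels was the same for Hspa1a, Hspa1b, Hsph1, Dnajb1 and Hspb1, with stimulated WT highest and stimulated Nos2-/- next. Stimulated and untreated Nos2-/- arrays overlapped for Hsph1 and Hspb1, as did the stimulated genotypes for Hspb1. The untreated groups shared the lowest place and did not differ beyond their spread. The same order of means held for Hspa8 and Hsp90aa1, where the stimulated genotypes did not overlap but did not pass the test. Dnajb1 and Hspb1 likewise did not separate the stimulated genotypes by the test. None of the 10 genes lies on chromosome 11, where Nos2 is, so none shares a chromosome with the altered gene.

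Other chaperones were read from lists of related systems, and their counts are to be set beside the 29.6% of all genes called higher and 28.4% lower in WT and the 26.3% and 28.2% in Nos2-/- cells. At an unadjusted p under 0.05, limma gave 1223 higher and 1517 lower of all 18193 genes between stimulated genotypes. In the difference between the responses it gave 868 and 957, and with stimulation in Nos2-/- cells 5422 and 5339. Of the cytosolic Hsp70 system, comprising further Hsp70s, J-domain proteins and exchange factors, 22 of 22 genes were measured. Stimulation raised 11 and lowered 7 of them in WT (median 0.25), against 10 and 9 in Nos2-/- cells (median −0.03). Dnajb2 and Dnaja1, both J-domain proteins, rose by 1.60 and 1.16 in WT and by 1.43 and 1.06 in Nos2-/- cells, and Hspbp1, an exchange factor, was at −0.87 and −0.84. Hspa4l, of the same Hsp110 family as Hsph1, rose by 0.87 in WT.

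Between stimulated genotypes 2 of these 22 genes were lower and 0 higher (limma gave 5 and 0 where p was unadjusted). The larger difference was in Dnajb4, a J-domain protein related to Dnajb1. It was at 8.57, 8.77 and 8.53 in untreated WT, 8.99, 8.94 and 9.12 in stimulated WT, 8.57, 8.54 and 8.70 in untreated Nos2-/- and 7.51, 7.45 and 7.08 in stimulated Nos2-/- cells. Stimulation thus moved it in opposite directions, up by 0.39 ± 0.11 in WT (adjusted p = 0.0064 from limma) with a log2 fold change of −1.26 ± 0.11 in Nos2-/- cells (adjusted p = 1.5e-07 from limma). The difference between the responses was −1.65 ± 0.15 (adjusted p = 8.3e-05 from limma), next to −1.47 in Hspa1a, which rose in both genotypes. The size of the Dnajb4 values depended on the setting. Its calls in Nos2-/- cells, between stimulated genotypes and in the difference between the responses held under all alternatives. The rise in WT, of 1.31-fold, lost its call in 1 of 23 alternatives, the authors' 1.5-fold threshold. Under the alternatives the difference ranged from −1.73 to −1.13 and the log2 fold change in Nos2-/- cells from −1.34 to −0.78. One of its 2 promoter windows holds 2 heat shock units, 15 bases before the start. The other lower gene was Bag2, an inhibitor of the ubiquitin ligase CHIP, at −0.45 ± 0.09 (adjusted p = 0.0110 from limma).

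Of the cytosolic Hsp90 system 9 of 12 genes were measured, with 4 rises and 4 falls in WT (median 0.02) and 5 and 4 in Nos2-/- cells (median 0.32). Fkbp5, an Hsp90 cochaperone induced by glucocorticoids, was at −2.94 ± 0.09 in WT and −2.69 ± 0.09 in Nos2-/- cells, and at −1.52 and −1.39 as the mean of its probe sets. Chordc1 rose by 0.94 and 0.88. Between stimulated genotypes Fkbp4 and Ahsa1, which activates the ATPase of Hsp90, were lower at −0.41 ± 0.06 (adjusted p = 0.0016 from limma) and −0.30 ± 0.06 (adjusted p = 0.0132 from limma). Both also fell with stimulation, unlike Hsp90aa1, and the call of Ahsa1 was lost without WT stimulated replicate 1 or without WT stimulated replicate 3. When probe sets were averaged per gene, neither was called, Fkbp4 being at −0.08 (adjusted p = 0.6275) and Ahsa1 at −0.15 (adjusted p = 0.2139). No gene of the list was called in the difference between the responses (1 higher and 2 lower at an unadjusted p under 0.05 from limma).

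The remaining small heat shock proteins and heat shock factors, 12 of 12 measured, showed 5 rises and 2 falls in WT and 2 and 1 in Nos2-/- cells. All 5 genes that rose had a mean signal of at most 5.18, within or below the range of the array medians, so they were not shown to be above background. The values were small, led by Hspb3 at 0.56 ± 0.09 in WT and Hspb11 at −0.57 ± 0.09 in Nos2-/- cells. No gene of the list was called between stimulated genotypes (0 higher and 2 lower at an unadjusted p under 0.05 from limma).

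Genes of the mitochondrial and chaperonin lists mostly fell in both genotypes, among them Hspd1 and Hspe1, which are themselves known heat shock genes. Of the mitochondrial chaperones 10 of 11 were measured, with 1 rise and 8 falls in WT (median −0.70) and 0 and 8 in Nos2-/- cells (median −0.85, with 1 rise and 8 falls at an unadjusted p under 0.05 from limma). Clpb, a disaggregase, led at −1.60 and −1.86, and Hspd1, the mitochondrial chaperonin, and its partner Hspe1 were at −0.92 and −1.11 in WT. Of the cytosolic TRiC chaperonin and its partner prefoldin, 12 of 13 genes fell in each genotype, with medians of −0.54 and −0.56. None of either list was called between stimulated genotypes, where an unadjusted p under 0.05 from limma gave 0 higher and 2 lower mitochondrial genes and 0 genes of TRiC in either direction.

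The ER list, of which 22 of 22 genes were measured, mostly fell, like Hsp90b1. There were 4 rises and 13 falls in WT (median −0.57), against 6 and 12 in Nos2-/- cells (median −0.52). Sdf2l1 and Pdia4, targets of the unfolded protein response, were at −1.53 and −1.39 in WT and at −1.47 and −1.30 in Nos2-/- cells, Pdia4 being at −0.61 and −0.56 as the mean of its probe sets. Other targets of that response rose, Creld2 by 0.31 and 0.40 and Manf by 0.21 and 0.35, as did Ern1, which encodes its sensor IRE1, by 0.37 and 0.47. Dnajb9 and Edem1 were called higher with stimulation in Nos2-/- cells, at 0.28 and 0.21. Creld2, Manf, Ern1 and Edem1 were named after their values were seen. Ero1a, an oxidase that drives disulfide formation and is also induced by hypoxia, had the largest rises of the list, 2.45 ± 0.08 and 1.85 ± 0.08. Between stimulated genotypes it was at −0.54 ± 0.08 (adjusted p = 0.0010 from limma), and Herpud1 and Dnajb9 were higher by 0.33 ± 0.07 and 0.26 ± 0.06. Both higher calls were lost without Nos2-/- stimulated replicate 1 or 3 or without WT stimulated replicate 1 or 2, and 1 of them without Nos2-/- untreated replicate 1, WT stimulated replicate 3 or WT untreated replicate 1. Ero1a also differed in its response, by −0.60 ± 0.11 (adjusted p = 0.0147 from limma). That call was lost in 3 of 22 alternatives, among them the fit without WT untreated replicate 1, where the value was again −0.60.

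**Figure D4:**
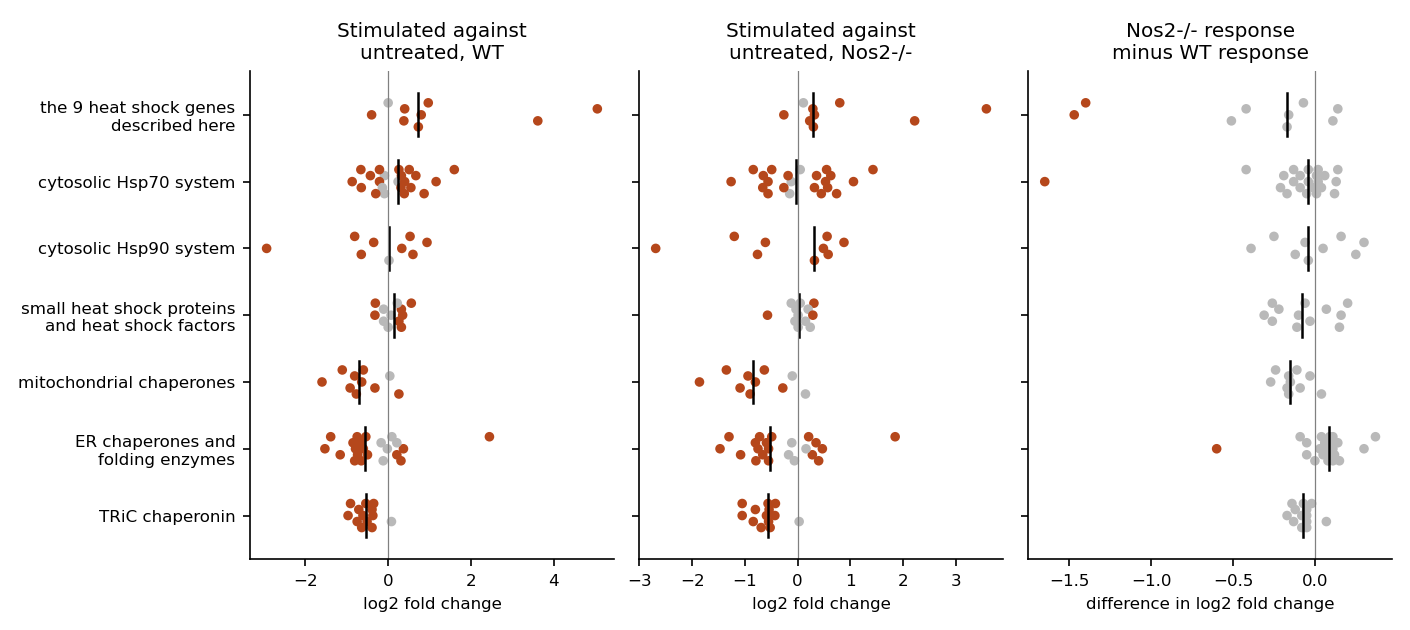
Log2 fold change with stimulation in WT (left) and Nos2-/- cells (middle) and the difference between them (right) for the 9 heat shock genes and 6 further chaperone lists, 1 point per gene, orange where limma's adjusted p was under 0.05 and grey otherwise, with a line at each list's median. Medians of the mitochondrial, ER and TRiC lists lie between −0.52 and −0.85 in the left and middle panels, and in the right panel 4 genes are orange, namely Hspa1a, Hspa1b, Dnajb4 and Ero1a.

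The genes with the pattern most like that of Hspa1a over the 12 arrays, among 3082 genes whose means differed by at least 1 log2 unit between groups, were Pim3 (Pearson r 0.997), Egln3 (0.996), Zdhhc18 (0.996), Ero1a (0.996) and Jdp2 (0.994). Egln3, a prolyl hydroxylase of the oxygen response, went from a mean of 5.80 to 10.30 in WT and from 5.95 to 9.23 in Nos2-/- cells. Since the 12 arrays form 4 tight groups, such correlations describe an order of 4 means and little else. For Hspa5, whose signal spanned only 0.15 log2 units, the closest were Siglec1 (0.867), Rel (0.848), P2ry13 (0.829), Sp110 (0.799) and Il10 (0.797).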

How the data were processed

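The deposited table holds log2 values that the authors made from Affymetrix Mouse Genome arrays with RMA in Partek (version not given in the sources used here). It has 45101 probe sets. After 64 controls were left out, 34945 named 1 gene, 932 several and 9160 none, and the first kind gave 18193 genes. Gene names are those of the platform annotation, and 34741 of these probe sets also matched a RefSeq symbol. A gene was read from its probe set with the highest mean, and dim probe sets were kept. RMA values carry no detection call.

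Groups were taken from the sample labels and fitted together as 4 group means over 12 arrays by limma (version 3.58.1, under R 4.3.3), with moderated two-sided tests. A gene was called where p, adjusted by Benjamini-Hochberg over all genes, was under 0.05. The authors selected genes by analysis of variance at 1.5-fold and a false discovery rate under 0.5, and that threshold was an alternative, as were other models, scalings, filters, probe set choices, the replicate number as a block and each array left out in turn. The members and lists were chosen with earlier results of these data known. Genes named beyond the members are, per list and comparison, up to 4 called genes with the largest change whose groups did not overlap, and the 5 most correlated with Hspa1a and Hspa5. Tables and motif searches used Python 3.11.15 with pandas 2.3.3, and figures matplotlib 3.10.9. Promoters of Hspa8, Hsp90aa1 and Hsf1 are not shown.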

Additional observations from a re-analysis of the deposited data

Results flagged for a closer look

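The response to stimulation differed between the genotypes for 4 of the chaperone genes, by limma's test of the difference itself. These were 2 of the 9 heat shock genes, 1 of 22 in the cytosolic Hsp70 system and 1 of 22 in the ER list. The other lists gave none. All 4 were lower calls, against 0.676% of all genes called lower and 0.302% higher. On the log2 scale, the Nos2-/- response minus the WT response was −1.65 for Dnajb4, −1.47 for Hspa1a, −1.40 for Hspa1b and −0.60 for Ero1a. The call of Ero1a was lost in 3 of 22 alternatives. Under the alternatives the value of Dnajb4 ranged from −1.73 to −1.13, so its place ahead of Hspa1a and Hspa1b depends on the setting. Dnajb4 rose in WT and fell in Nos2-/- cells, whereas the other 3 rose in both and by less in Nos2-/- cells. Probe sets of Hspa1a and Hspa1b may take up transcripts of either gene, so they may not be separate cases.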

How the results depend on the processing

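The calls of Hspa1a and Hspa1b in both genotypes, between stimulated genotypes and in the difference between the responses were the same under all alternatives tried, with differences of −1.61 to −1.40 and −1.52 to −1.29. Of 1026 values of the 9 genes under 23 alternatives, 960 kept their direction and side of the threshold, 44 lost a call, 7 gained one and 15 changed sign, and of 1368 counts of the other lists 64 moved by over 1.5 times. Under the methods' 1.5-fold and false discovery rate of 0.5, members lower became 0 in either genotype and members higher 3 in Nos2-/- cells. Members higher in Nos2-/- cells ranged from 4 to 7 when 1 array was left out, with 4 without Nos2-/- stimulated replicate 2, and centring on array medians left 0 lower there. That centring also moved the calls over all genes to 8316 higher and 4527 lower in WT and 8090 and 4377 in Nos2-/- cells, from 5393 and 5166, and 4788 and 5134. Over all genes, 188 were higher and 347 lower between stimulated genotypes, against 59 and 175 with only the arrays compared, 309 and 486 with an intensity trend, 328 and 470 of 9097 genes without dim ones and 39 and 136 under the methods' threshold, and as few as 102 higher without 1 array. The difference between the responses gave 55 and 123, against 29 and 79 without moderation, 124 and 178 with the trend, 116 and 178 without dim genes, 87 and 131 under the methods' threshold, and as few as 21 and 72 without WT untreated replicate 1. In WT, the methods' threshold left 1641 higher and 3076 lower, and in Nos2-/- cells 1713 and 3130, while leaving out dim genes left 2895 and 2937 higher. Sign changes were all in uncalled values near 0. For untreated genotypes Hspa8 became 0.00 under quantile normalization and −0.05 to 0.01 without 1 array, Dnajb1 0.02 with the mean of probe sets and −0.05 to 0.01 without 1 array, Hsp90aa1 0.03 with the mean of probe sets and −0.05 to 0.05 without 1 array, Hspb1 −0.04 to 0.15 without 1 array and Dnajb4 0.01 with the mean of probe sets and −0.07 to 0.05 without 1 array. The WT response of Hspa5 became 0.10 under median centring, 0.08 with the mean of probe sets and −0.02 to 0.01 without 1 array. The cause was not tested. Whether the replicate numbers pair the arrays was left unsettled. Of 18 same-numbered pairs, 2 had deviations correlated over 0.1 (range −0.26 to 0.211). In 10 of 18 comparisons of an array with another group, however, it correlated best with its own number. With the replicate block the member counts were 7 higher and 1 lower in WT and in Nos2-/- cells, 0 and 3 between stimulated and 0 and 0 between untreated genotypes, and 0 and 2 in the difference between the responses, as without it.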
